A study of Mus musculus with 12 samples.

Results

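The 85 genes described here code for the proteins of the cytosolic ribosome and a few close relatives, and were measured in the hippocampus of Fmr1 KO and WT mice by poly(A) RNA-seq. They were chosen by name from the 55421 genes listed: protein-coding genes whose mouse symbol starts with Rpl or Rps and a digit, with Rplp0, Rplp1, Rplp2 and Rpsa, and without pseudogenes, the Rps6k kinases and Rps27l. Of these, 77 are proteins of the ribosome itself (43 of the large subunit, 31 of the small subunit and 3 of the stalk), and 8 are paralogs or binding partners. More than 20 counts over all libraries were found for 83 of them, which were tested among 22592 genes. Rpl10l had no count and Rpl39l had 5 counts, so both were left untested.

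Hippocampi of 12 mice were sequenced, 3 in each of 4 groups. WT-Veh were wild type mice given vehicle and WT-Nut3 were wild type mice given Nutlin-3, while KO-Veh and KO-Nut3 were Fmr1 KO mice given the one or the other. The compound keeps the ubiquitin ligase MDM2 from binding p53. All mice were of C57B/L6 background, the treatment was 5 intraperitoneal injections begun at an age of 2 months (10 mg/kg in the treated groups), and all tissue was taken at 6 months. The sources do not say whether the sequenced mice carried the Nestin-GFP reporter used in other experiments. The libraries are named by their numbers from RH1 to RH16. Each library had between 17150820 and 20040482 reads on genes, of which 167583 to 215376 fell on the 85.

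The ribosome is the machine that reads mRNAs and builds proteins, and each of its subunits is a scaffold of ribosomal RNA covered by many small basic proteins. These proteins are made in near equal amounts, and those made in excess are degraded. In vertebrates their mRNAs begin with a run of pyrimidines, the 5′ terminal oligopyrimidine (TOP) tract, through which the kinase mTOR and the RNA-binding protein LARP1 adjust their translation. A few free ribosomal proteins, above all RPL5 and RPL11, also bind MDM2, and FMRP, the product of Fmr1, associates with translating ribosomes.

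Start sequences were available from RefSeq (GRCm38.p6) for 65 of the 85 genes. The motif CTTTCC or CTTTTC, a short form of the TOP tract, was searched for on the transcribed strand from 20 bases before to 50 bases after the annotated start. It occurred in 25 of the 65 (38.5%), against 5.54% of the 27025 genes in the table. The motif CCGGAAG, a core bound by ETS factors, was searched for on both strands from 250 bases before to 50 bases after the start, allowing overlap with the other motif. It occurred in 24 of the 65 (36.9%), against 9.12% of all genes. Of the 8 genes with a start sequence that differed by library number below, 2 carried the pyrimidine motif and 5 carried CCGGAAG. The windows of 30 bases printed here show in capitals the match of the pyrimidine motif nearest the annotated start. They are given for these 2 genes (Rps27 and Rpl38) and for 3 that did not pass that test.
Rps27 (chr3:90213628-90213657, minus strand): gctttcgctcCTTTCCggcggtgacgacct
Rpl38 (chr11:114668570-114668599, plus strand): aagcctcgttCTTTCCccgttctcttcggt
Rpl28 (chr7:4792957-4792986, plus strand): tcgtgtctctCTTTCCgtctccggccgcca
Rpl26 (chr11:68901581-68901610, plus strand): gtgtagttctCTTTCCttttgcggccatcg
Rpl4 (chr9:64173365-64173394, plus strand): caagtctttcCTTTTCctgtgggagcagcc
In Rpl38 the motif in capitals starts at the first annotated base, in Rps27 at position 2 and in Rpl28 at position 3. In Rpl26 it lies at position 26, and in Rpl4 it starts 12 bases before the annotated start. The Rpl4 window also holds a CTTTCC that begins farther before the start and overlaps the capitals. A match of letters is not a measured start site.

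The labels were checked first by Fmr1 itself. Its level, in CPM (counts scaled to a common library size), was 79.5, 75.3 and 77.7 in the WT-Veh libraries and 75.2, 74 and 78.3 in the WT-Nut3 libraries. The KO-Veh libraries had 32.7, 32.5 and 37.3 CPM and those of KO-Nut3 30.6, 28.5 and 35.7 CPM. Every KO library lay below every WT library, and reads on Fmr1 remained in the KO libraries. Several libraries stood apart in other genes. Ttr, a marker of choroid plexus, stood at 3091, 314 and 4520 CPM in all 3 KO-Nut3 libraries (RH6, RH8 and RH13) and at 4215 CPM in WT-Nut3 RH9, and at 3.15 to 18.2 CPM elsewhere. The thalamus markers summed to 211 CPM in RH6 and to 47.4 to 68.2 CPM in the other libraries. WT-Veh RH15 held genes of salivary gland such as Muc19, at 25.5 CPM there and at most 0.057 CPM elsewhere. Hippocampal markers were present in all libraries and lowest in RH6, where those of CA pyramidal neurons summed to 511 CPM (687 to 798 CPM elsewhere) and those of dentate granule neurons to 360 CPM (421 to 538 CPM elsewhere). The share of reads mapped to several places was 3.07% to 3.22% in the 6 libraries numbered up to RH8 and 3.33% to 3.55% in the 6 numbered from RH9. This division, already known from earlier work on these data, crosses all groups: WT-Veh and KO-Nut3 have 2 libraries up to RH8 and 1 from RH9, and WT-Nut3 and KO-Veh have 1 and 2. The labels do not say what it stands for, so the libraries are named here by number only.

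Ribosomal protein mRNAs were abundant in every library. Together the 85 genes took 0.977%, 0.98% and 1.06% of the reads on genes in WT-Veh (libraries RH2, RH5 and RH15), and 0.982%, 1.07% and 1.02% in WT-Nut3 (RH1, RH9 and RH14). The share was 1.02%, 1.08% and 1.04% in KO-Veh (RH7, RH10 and RH16) and 1.06%, 1.03% and 1.08% in KO-Nut3 (RH6, RH8 and RH13). The means of the 4 groups in this order were 1% ± 0.0459 (SD, n = 3), 1.03% ± 0.0466, 1.05% ± 0.0265 and 1.06% ± 0.0277, and the ranges of neighbouring groups overlapped. By library number the mean was 1.01% ± 0.0338 (SD, n = 6) up to RH8 and 1.06% ± 0.0244 from RH9, and these ranges overlapped too, since KO-Nut3 RH6 at 1.06% lay above WT-Nut3 RH14 at 1.02%. Up to RH8 the KO libraries had 1.02% to 1.06% and the WT libraries 0.977% to 0.982%, without overlap. From RH9 the KO libraries (1.04% to 1.08%) and the WT libraries (1.02% to 1.07%) overlapped. In bulk tissue, fewer cells of a type and less RNA per cell cannot be told apart.

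**Figure D1:**
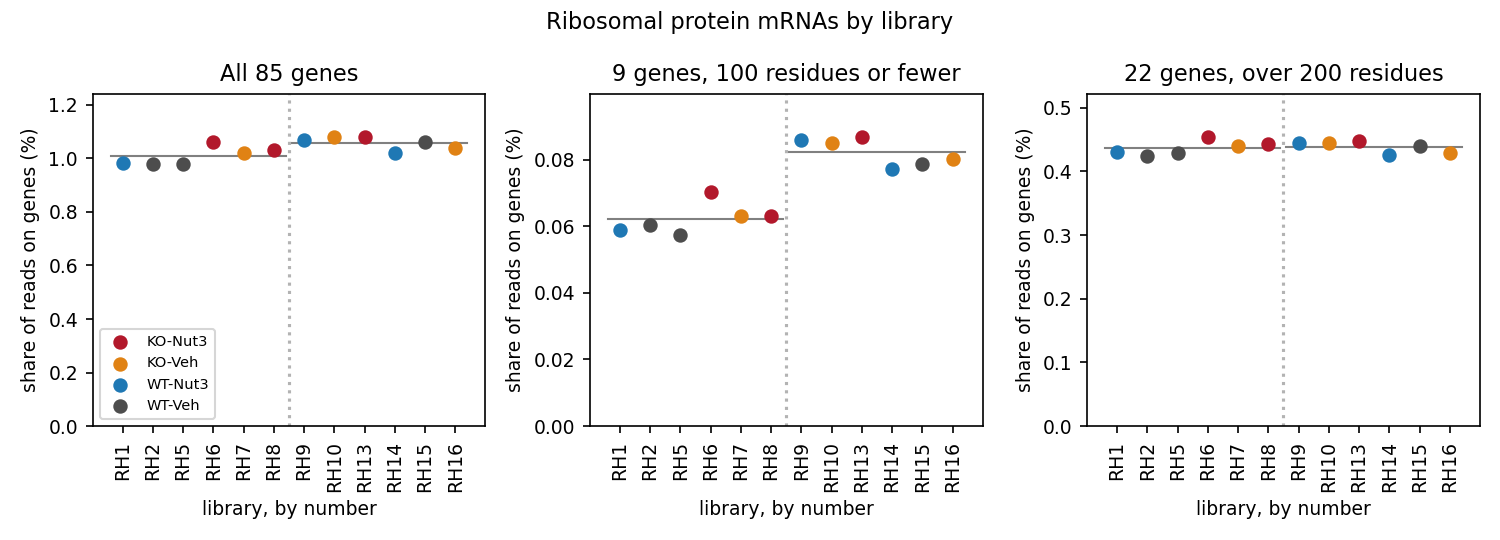
Share of the reads on genes (%, vertical axes from 0) taken by ribosomal protein genes in each library, ordered by number and coloured by group; grey lines are the means of the 6 libraries up to RH8 and the 6 from RH9. The 9 genes for the smallest proteins took 0.0574% to 0.0702% up to RH8 and 0.0773% to 0.0868% from RH9 without overlap, and the 22 genes for the largest took about the same share in both.

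The 77 core genes had a median mean level of 119 CPM, against 6.57 CPM over all genes tested, and ranged from 394 CPM for Rpl3, a protein near the peptidyl transferase centre, down to 0.328 CPM for Rpl24. The next in order were Rpl4 at 392 CPM, Rplp1 at 335 CPM, Rpsa at 293 CPM and Rps2 at 276 CPM. Rpl3 and Rpl4 did not differ beyond their spread, with 388 to 415 CPM and 381 to 394 CPM in the libraries up to RH8. Per kilobase of the annotated mRNA, the median of the core genes was 141 CPM per kb. The highest level was that of Rplp1, an acidic protein of the stalk that recruits elongation factors, with 671 CPM per kb, followed by Rps15 with 391 and Rpl13 with 338 CPM per kb. Rplp0 and Rplp2, which form the stalk with it, had 134 and 108 CPM per kb.

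At the low end, 5 core genes had under 10 CPM. Rpl35 stood at 4.92 CPM, Rpl23a at 4.73, Rpl13a at 4.41, Rps10 at 2.89 and Rpl24 at 0.328. Every cell needs these proteins, and the authors' counts hold only reads that map to 1 place and fall on 1 gene. Exons of other genes covered 66.2% of the annotated exon sequence of Rpl35 and 62.3% of Rpl23a, 47% of Rpl24, 35.4% of Rpl13a and 28.7% of Rps10. Members with an overlap near that of Rps10 stood far higher, Rpl5 with 26.7% at 142 CPM, Rpl31 with 25.3% at 116 CPM and Rps25 with 24.8% at 119 CPM. The levels of the 5 genes are uncertain, and reads shared with near-identical pseudogenes are left out for every member. The cause of the low levels was not tested. Pseudogenes of ribosomal proteins, 300 listed of which 78 were tested, took 0.00417% to 0.00513% of reads on genes. Paralogs were low, as Rpl7l1 stood at 38.2 CPM, Rpl22l1 at 5.29, Rps27rt at 0.929, Rpl3l, known from muscle, at 0.458 and Rpl36al at 0.234 CPM, and Rps19bp1, a binding partner of RPS19, at 13 CPM.

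By library number, 10 of the 83 genes were higher in the libraries from RH9 than in those up to RH8 and none was lower, at adjusted P-values under 0.05 in edgeR's quasi-likelihood test with the group as a term. Over all 22592 genes tested, 0.164% were called higher and 0.199% in either direction. At unadjusted P under 0.05, 32 members were higher and none was lower, against 5.04% of all genes higher and 9.54% in either direction. The 10 were Rps27, Rps29, Rpl38, Rpl30, Rpl39, Rps28, Rpl37a, Rpl41, Rps21 and Rpl37, by 1.25 to 1.49-fold. All 10 had libraries that did not overlap, as did 12 further members that were higher and did not pass the test, 22 of 83 in all. Such separation upward was seen in 0.553% of all genes. One member, Rps6, separated downward (0.372% of all genes).

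Rps27, a zinc finger protein of the small subunit with 84 residues (chr3:90212522-90213651, minus strand), ranged from 60.5 to 69.3 CPM (median 64.3) up to RH8 and from 83.6 to 97.6 CPM (median 93.9) from RH9. Each library of the second set lay well above each of the first. Its log2 fold change was 0.53 (SE 0.0435, adjusted P = 0.000171 in edgeR's test). Rps29, also a zinc-binding protein of the small subunit (chr12:69157722-69159186, minus strand), ranged from 53.5 to 67.8 CPM (median 58) and from 77.6 to 97.8 CPM (median 89.3). Its log2 fold change of 0.58 (SE 0.0672, adjusted P = 0.00316) was the largest of the 10. Rpl38, a large-subunit protein known for its role in the patterning of the mouse axial skeleton (chr11:114668524-114672331, plus strand), ranged from 46.8 to 60.6 CPM (median 49.6) and from 66.7 to 80.8 CPM (median 75). The log2 fold change was 0.56 (SE 0.0711, adjusted P = 0.00544).

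Rpl41 (chr10:128548114-128549305, minus strand), whose protein of 25 residues is the smallest of the ribosome, ranged from 96 to 113 CPM (median 100) up to RH8 and from 122 to 142 CPM (median 134) from RH9. The log2 fold change was 0.37 (SE 0.0436, adjusted P = 0.00316). Rpl39, which lines the exit tunnel with 51 residues (chrX:37082520-37085402, minus strand), ranged from 23.6 to 28 CPM and from 34.1 to 39.3 CPM, a log2 fold change of 0.45 (SE 0.0603, adjusted P = 0.00867). Within the set up to RH8, Rpl41 had 102 to 113 CPM in the 3 KO libraries and 96 to 98.7 CPM in the 3 WT libraries, while from RH9 KO and WT libraries overlapped. The other 5 were Rpl30 with a log2 fold change of 0.48, Rps28 with 0.41, Rpl37a with 0.37, Rps21 with 0.36 and Rpl37 with 0.32. When each of the 12 libraries was left out in turn, Rps27, Rps29 and Rps21 passed in all 12 fits, Rpl37a and Rpl41 in 11, Rpl38 in 10, Rpl30 and Rpl39 in 9, Rpl37 in 7 and Rps28 in 3.

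**Figure D2:**
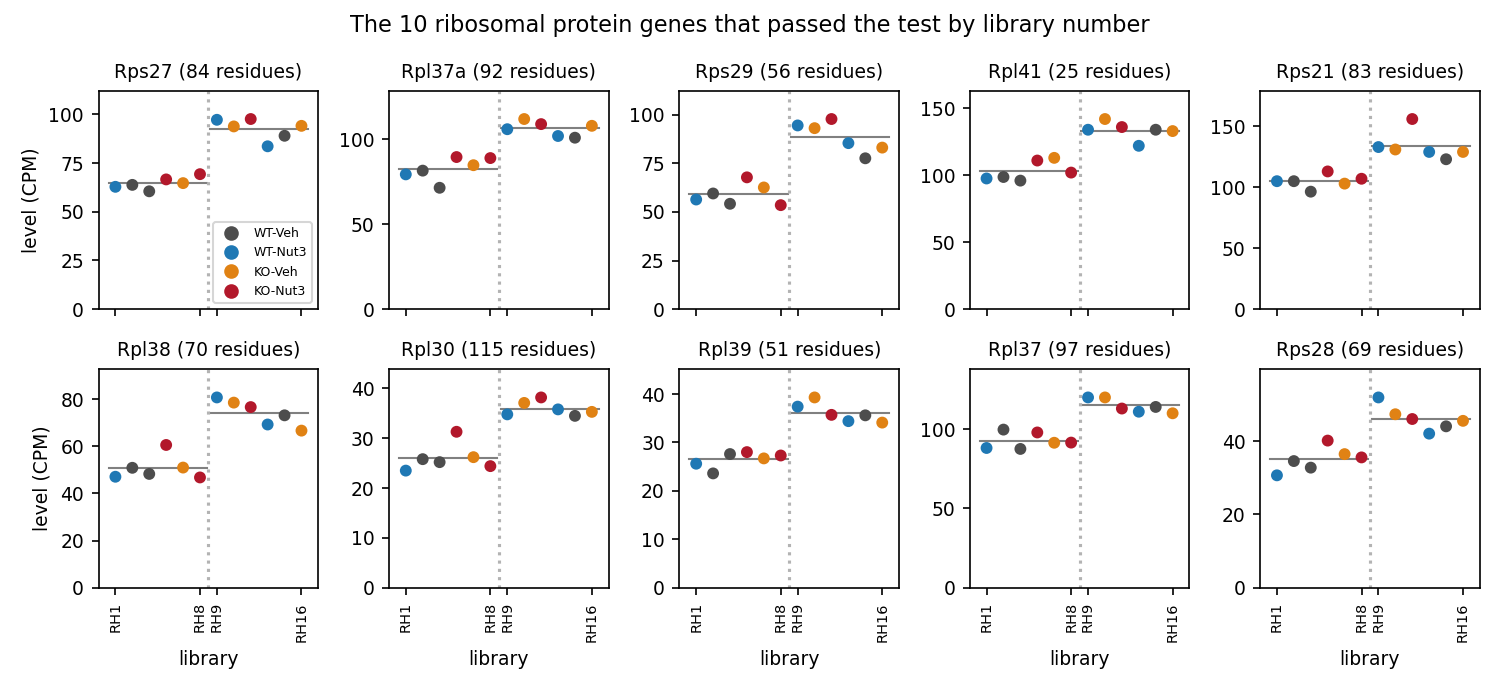
Level (CPM, axes from 0) of the 10 ribosomal protein genes that passed the test by library number, in each of the 12 libraries from RH1 to RH16; colours give the group, grey lines the mean of each set of 6 and the dotted line the division. In each panel all 6 libraries from RH9 lie above all 6 up to RH8, whatever their group.

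Libraries from RH9 were also compared with those up to RH8 within each group. For the 10 genes the direction was fixed by their not overlapping, and the median log2 ratio over them was 0.44 and 0.51 in WT-Veh and WT-Nut3 and 0.42 and 0.41 in KO-Veh and KO-Nut3. Over the 83 genes, 69, 70, 56 and 68 were higher in these groups, with median log2 ratios of 0.09, 0.09, 0.03 and 0.09, the lowest being that of KO-Veh, while 48.7%, 50.4%, 49.4% and 49.7% of all genes were higher. In the fit, 72 of 83 members were higher with a median log2 fold change of 0.07, against 0.00 over all genes, of which 49.9% were higher.

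The genes that passed code for small proteins. All 9 core genes for proteins of at most 100 residues were among the 10, and the last, Rpl30, codes for 115 residues. Of the 16 core genes for at most 115 residues 10 passed, and Rpl36 with 105, Rpl36a with 106, Rpl35a with 110 and Rplp1 with 114 residues did not. In bands of protein length, set after the values were seen, the median log2 fold change was 0.41 over the 9 genes up to 100 residues, 0.10 over 27 genes with up to 150, 0.07 over 19 genes with up to 200, and 0.03 over the 22 genes above 200 residues. Across the 77 core genes, Spearman's rho between protein length and the log2 fold change was -0.64. With the log2 of the mean level in CPM, rho over the same genes was -0.42. The genes share their libraries, and these are descriptions. Closest to the threshold on the other side were Rps26 (115 residues, log2 fold change 0.22, adjusted P = 0.0523) and Rpl34 (117 residues, log2 fold change 0.18, adjusted P = 0.0649), while Rps28 was the last inside it (69 residues, adjusted P = 0.035).

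The share of reads taken by the 9 genes was 0.0621% ± 0.00458 (SD, n = 6) up to RH8 and 0.0823% ± 0.00407 from RH9, without overlap. Over the 22 genes above 200 residues it was 0.437% ± 0.011 and 0.438% ± 0.00929. The ratio of the first to the second was 0.134 to 0.155 and 0.179 to 0.194. That these do not overlap follows from the choice of the 9 genes, each of which separates the sets. Among the genes for large proteins, Rpl3 stood at 399 ± 9.52 and 388 ± 11.8 CPM, Rpsa, which is also the laminin receptor, at 292 ± 5.22 and 294 ± 8.7 CPM, and Rplp0 at 181 ± 4.07 and 183 ± 6.91 CPM. Rps6, whose phosphorylation reports mTOR activity, stood at 150 ± 3.62 and 142 ± 4.63 CPM (log2 fold change -0.08, adjusted P = 0.542). None of the other members named for their role passed in edgeR's test, while Rplp1 and Rpl26 passed with DESeq2 (adjusted P = 0.0433 and 0.0455) and with every gene of at least 1 count tested (0.0491 and 0.0466). Rpl10a and Rps25, both known from work on ribosomes that differ in make-up, had log2 fold changes of 0.12 and 0.11, and Rplp1 and Rplp2 of the stalk and Rpl26 had 0.16 each. Rps27a, made as a fusion with ubiquitin, had 0.07, Rps19, the gene most often mutated in Diamond-Blackfan anaemia, 0.05, Rpl10 0.04, Rps14 0.02 and Rps3 -0.01.

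**Figure D3:**
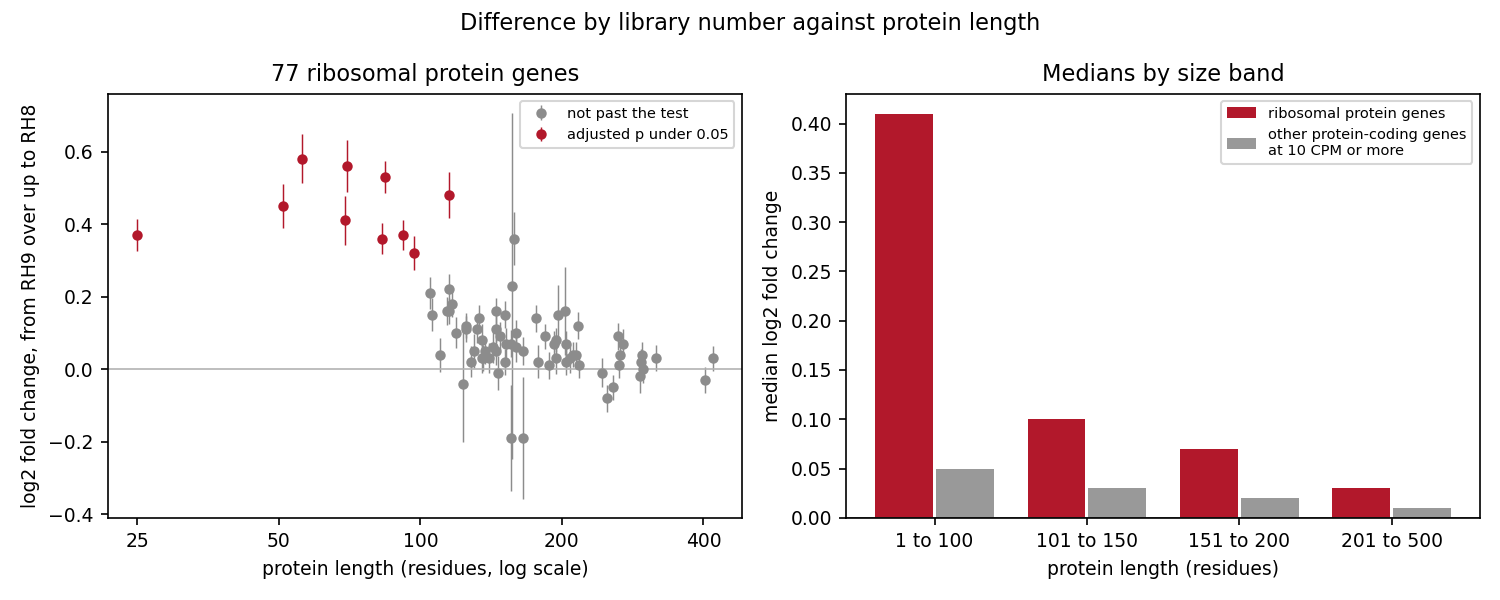
Left, log2 fold change between libraries from RH9 and up to RH8 (± SE) against protein length (residues, log axis) for the 77 core ribosomal protein genes, red where the adjusted P was under 0.05; right, median log2 fold change by length band for these genes and for other protein-coding genes at 10 CPM or more. The 9 genes up to 100 residues lie at 0.32 to 0.58, and the median of the ribosomal protein genes drops from 0.41 to 0.03 over the 4 bands.

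Other genes for small proteins had smaller differences in the median. Among 172 other protein-coding genes at 10 CPM or more with proteins of at most 100 residues, 126 were higher from RH9, with a median log2 fold change of 0.05, and 6 were called higher (Ndufa1, Ndufa3, Cox6c, Cox7a2, Atp5k and Sec61g), where 0.164% of all genes were. Without the respiratory chain list and all other genes named Cox, Nduf, Atp5 or Uqcr, 150 were left, with a median of 0.04, and 1 of them passed (Sec61g). In the other bands up to 500 residues the medians were 0.03, 0.02 and 0.01. Of 41 nuclear genes of the respiratory chain with short mRNAs, 34 were higher with a median log2 fold change of 0.13, and 5 passed (Ndufa1, Ndufa3, Cox6c and Cox7a2, counted above, and Ndufb9). Cox7a2, a small subunit of cytochrome oxidase, ranged from 62.8 to 66.4 CPM and from 73.6 to 84.4 CPM (log2 fold change 0.31, adjusted P = 0.00882). Across 10010 other coding genes Spearman's rho with protein length was -0.13.

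In all, 45 genes passed by library number. Of the 35 that are not ribosomal protein genes, 8 were genes such as Muc19 that stood in WT-Veh RH15 at 10 times the next library's level or more, 19 others were higher and 8 were lower. The 19 included Hspa5, a chaperone (log2 fold change 0.53, adjusted P = 0.0209), and mt-Rnr2, the large mitochondrial ribosomal RNA (0.28, adjusted P = 0.0407). The summed choroid plexus markers ranged from 33.2 to 3576 CPM up to RH8 and from 31.5 to 5117 CPM from RH9, with Ttr the most abundant. Without the 4 libraries with high Ttr, which leaves no KO-Nut3 library, the test called 10 ribosomal protein genes, the same ones, and 0.261% of all genes. Without WT-Veh RH15 it called 3 members (Rps27, Rps29 and Rps21) and no other gene (0.0133%), without WT-Nut3 RH1 it called 5 (0.0443% of all genes), and without KO-Veh RH7 it called 6 (0.0575%). DESeq2 called 16 of the 79 members to which it gave an adjusted P, and 0.673% of the 14708 genes with one.

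No gene of the following lists passed by library number, where 0.199% of all genes passed and 49.9% were higher. At so low a share, none passing in lists of this size says little about them. Of 34 translation initiation and elongation factors 17 were higher and none passed, with a median log2 fold change of 0.00; Eef1a1, the most abundant of them and itself a TOP mRNA, stood at 1641 to 1776 CPM up to RH8 and 1661 to 1755 CPM from RH9. Of 21 other TOP mRNAs 13 were higher and none passed (median 0.03). The 38 genes of ribosome biogenesis had a median of -0.01 and 77 proteins of the mitochondrial ribosome one of 0.04, with none passing. Among the 14 genes of the mTOR control of TOP mRNAs the median was -0.01, and among the 12 genes of MDM2 and p53 it was 0.00, and none passed in either. Among ribosomal proteins outside the rule, Fau stood at 116 to 125 CPM and 114 to 130 CPM, Rack1, a scaffold on the small subunit, at 121 to 132 CPM and 125 to 139 CPM, and Rps27l, of 84 residues like its relative Rps27, at 6.04 to 8.76 CPM and 8.03 to 11.2 CPM (log2 fold change 0.35, adjusted P = 0.287). Of the 13 protein genes of mitochondrial DNA 12 were higher with a median of 0.14, and the 9 nuclear long noncoding RNAs had a median of -0.04, none passing.

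The comparisons of the study's groups asked whether the absence of Fmr1, or Nutlin-3, left a trace in these genes. No ribosomal protein gene passed the test in any of the 5 comparisons of groups, nor in the interaction of genotype and treatment. The treatment of KO mice had 0.199% of all genes passing, and the median log2 fold change of the 83 genes was -0.02, with 29 higher where 50.8% of all genes were. For KO-Veh against WT-Veh 0.0177% of genes passed, and the median was 0.05, with 72 members higher where 48.9% of all genes were. The treatment of WT mice had 0% passing, a median of 0.03 and 59 higher (50.1% of all genes). For KO-Nut3 against WT-Veh, with 0.00443% passing, the median was 0.04 and 65 were higher (52.4% of all genes), and for KO-Nut3 against WT-Nut3, with 0.00443% passing, it was 0.00 and 40 were higher (51.1%). The interaction, with 0% passing, had a median of -0.04 and 26 higher (51.3%). Other genes leaned the same way in some of these fits. For KO-Veh against WT-Veh 38 of 41 genes of the respiratory chain list were higher (median 0.10), and so were 128 of 172 other coding genes for at most 100 residues (median 0.06). In the interaction 9 of the 41 (median -0.09) and 54 of the 172 (median -0.06) were higher. The median over all genes was between -0.0043 and 0.0114 in these fits. At unadjusted P under 0.05 there were 1, 3, 1, 1, 0 and 2 members in these 6 fits, against 7.6%, 7.2%, 3.17%, 9.17%, 4.87% and 4.17% of all genes. DESeq2 called no member in any, while it called 1.35%, 0.0975%, 0%, 1.11%, 0.0359% and 0.00443% of the genes to which it gave an adjusted P. The pairs of groups share libraries, so these values are not independent of each other.

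**Figure D4:**
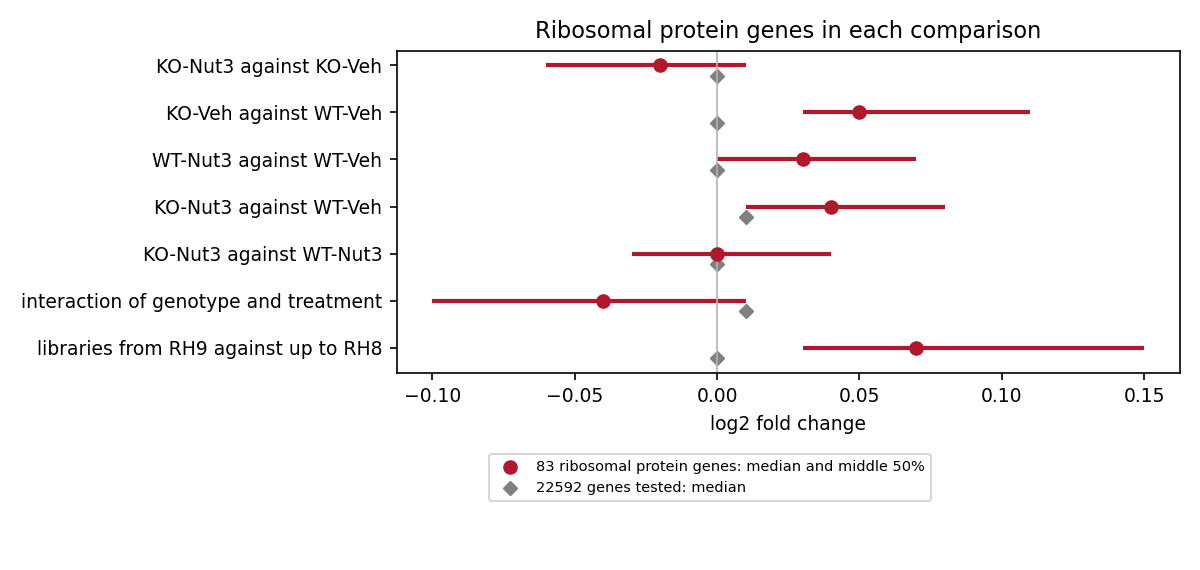
Median log2 fold change of the 83 ribosomal protein genes tested (red points, lines for the middle 50% of the genes) and of all 22592 genes (grey diamonds) in each comparison. The group comparisons have medians from -0.04 to 0.05 and the comparison by library number 0.07, with those of all genes between -0.0043 and 0.0114.

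Some of these small shifts moved when library number was added as a term, and others did not. The 9 genes for the smallest proteins were all above 0 between KO-Veh and WT-Veh, with a median of 0.21, and all above 0 between WT-Nut3 and WT-Veh, with a median of 0.18. With the library number as a term the medians were 0.07 with 8 above 0, and 0.01 with 5 above 0. Between KO-Nut3 and KO-Veh 8 of the 9 were below 0 with a median of -0.10, and with the term 7 were above 0 with a median of 0.03. In the interaction all 9 were below 0 with a median of -0.26, and with the term 5 were above 0 with a median of 0.03. Each of these 9 genes separates the sets by library number. Where the groups differ in their make-up by number, a movement of their values with the term follows from that choice of genes. Over all 83 genes the median moved from -0.02 to 0.01 in the treatment of KO, with 43 above 0 (50% of all genes) in the fit with the term, from 0.03 to -0.01 in the treatment of WT, with 36 above 0 (50.2%), and from -0.04 to 0.02 in the interaction, with 53 above 0 (51.4%). All 3 comparisons of KO with WT had more members above 0 than below with the term, and they share libraries. Between KO-Veh and WT-Veh the median moved from 0.05 to 0.03, with 62 of 83 above 0 (48.5% of all genes). Between KO-Nut3 and WT-Nut3 it moved from 0.00 to 0.04, with 64 of 83 above 0 (50% of all genes), and that of the 9 genes from -0.07 to 0.10, with all 9 above 0. Between KO-Nut3 and WT-Veh, which have the same make-up by number, both stayed where they were, at 0.04 with 65 of 83 above 0 (52.1% of all genes) and at 0.13 with all 9 above 0. No member passed in a fit with the term, in which 0.0885% of all genes passed for the treatment of KO, 0.093% for KO-Veh against WT-Veh, 0.0487% for the treatment of WT, 0.0133% for KO-Nut3 against WT-Veh, 0.00443% for KO-Nut3 against WT-Nut3 and 0% for the interaction.

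Rps29 had 59.5, 54.2 and 77.6 CPM in WT-Veh (RH2, RH5 and RH15) and 62.6, 93.1 and 83.1 CPM in KO-Veh (RH7, RH10 and RH16). The groups overlapped, and the lower values of each were from libraries up to RH8. The log2 fold change was 0.32 (SE 0.138, adjusted P = 0.679), and 0.16 (SE 0.0677, adjusted P = 0.867) with library number as a term. The other members with the smallest P between KO-Veh and WT-Veh were Rpl7l1, 0.15 higher on the log2 scale (adjusted P = 0.679), and Rpl37a, with a log2 fold change of 0.26 (adjusted P = 0.681). With library number as a term their log2 fold changes were 0.15 and 0.13. With each library left out, Rps29 ranged from 0.19 to 0.49 and Rpl37a from 0.15 to 0.42. Rpl7l1, a relative of Rpl7, had 35.4, 36.2 and 36.1 CPM in WT-Veh and 40.2, 41.1 and 38.3 CPM in KO-Veh, without overlap, as did 7 members upward in this comparison (5.9% of all genes) and 1 downward (6.46%).

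For the treatment of KO mice the member with the smallest P was Rpl29, a heparin-binding protein of the large subunit. It had 152, 164 and 153 CPM in KO-Veh and 137, 140 and 149 CPM in KO-Nut3, without overlap (log2 fold change -0.14, SE 0.061, adjusted P = 0.627). Next came Rps10 (-0.41, adjusted P = 0.732), one of the uncertain genes, and Rps7 (-0.10, adjusted P = 0.738), a protein that also binds MDM2. With each library left out, Rps10 ranged from -0.53 to -0.26. Members without overlap were 2 upward (7.85% of all genes) and 4 downward (5.44%). In WT mice the smallest P was that of Rps27rt, a retrogene of Rps27 with 207 counts in all 12 libraries, at 0.418, 0.578 and 0.773 CPM in WT-Veh and 1.07, 1.39 and 1.01 CPM in WT-Nut3 (log2 fold change 0.96, SE 0.35, adjusted P = 0.998). Next came Rps29 with 0.31 and Rps21 with 0.18, which were 0.11 and 0.08 with library number as a term. With each library left out they ranged from 0.15 to 0.50 and from 0.10 to 0.28. Without overlap were 4 members upward (3.6% of all genes) and 1 downward (3.92%). Between KO-Nut3 and WT-Veh the smallest P was that of Rpl18 (0.14, adjusted P = 0.521), followed by Rpl7l1 with 0.14 and Rpl24 with 1.41, the latter from 72 counts in all 12 libraries. Here 5 members were apart upward (7.92%) and 2 downward (7.09%). Between KO-Nut3 and WT-Nut3 and in the interaction the smallest P was that of Rpl13a (-0.32, adjusted P = 0.928, and -0.56, adjusted P = 0.994). In the former Rpl24 with 1.13 and Rpl11 with 0.10 came next, and 6 members were apart upward (5.3%) and 1 downward (5.35%). In the interaction Rps27rt had -1.01 and Rps10 -0.50 (-0.70 to -0.31 with each library left out).

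None of the ribosomal proteins that bind MDM2 passed in a comparison of groups, where only 0% to 0.199% of all genes did. For so few genes this count says little, and their levels are given instead. Rpl5 had a mean of 141 ± 2.58 CPM (SD, n = 3) in WT-Veh, of 143 ± 5.61 CPM in WT-Nut3, of 142 ± 3.53 CPM in KO-Veh and of 143 ± 4.59 CPM in KO-Nut3, with single libraries from 138 to 149 CPM. Rpl11 had means of 134 ± 6.89, 129 ± 6.14, 135 ± 9.03 and 139 ± 2.47 CPM in the same order. All 4 groups overlapped in Rpl5, while in Rpl11 the KO-Nut3 libraries (141, 136 and 138 CPM) lay above those of WT-Nut3 (126, 136 and 125 CPM), the nearest pair being equal once rounded. Their log2 fold changes between KO-Nut3 and KO-Veh were 0.01 (SE 0.0565, adjusted P = 0.981) and 0.04 (SE 0.0634, adjusted P = 0.918). Rpl23 and Rpl26, which binds both MDM2 and the Trp53 mRNA, had log2 fold changes of -0.02 (SE 0.0627) and 0.02 (SE 0.0679). Mdm2 itself had a log2 fold change of 0.04 (adjusted P = 0.925) and Cdkn1a, a target of p53, one of 0.00 (adjusted P = 1).

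Pseudogenes of ribosomal proteins had a median of 0.00 by library number, with none of 78 passing, where 0.199% of all genes passed. In the group comparisons no gene of the lists for translation factors, other TOP mRNAs, ribosome biogenesis, mitochondrial ribosomal proteins, respiratory chain, mTOR control or MDM2 and p53 passed the test, nor any of the pseudogenes, the ribosomal proteins outside the rule, the mitochondrial protein genes or the noncoding RNAs. Of all genes, 0% to 0.199% passed in these comparisons. Choroid plexus markers had 5 of 12 genes up in the treatment of KO mice (Ttr, Folr1, Tmem72, Slc4a5 and Kcne2) and fibroblasts 1 of 7 (Igf2), where 0.199% of all genes passed. The markers of CA pyramidal neurons had 1 of 7 down in KO-Veh against WT-Veh (Wfs1), where 0.0177% passed. By library number no marker passed, and the median log2 fold changes were 1.73 for choroid plexus, 0.48 for ependyma, 0.20 for blood, 0.08 for dentate granule neurons, 0.06 for CA pyramidal neurons, 0.05 for oligodendrocytes, 0.03 for microglia, -0.08 for endothelium, -0.10 for astrocytes, -0.37 for thalamus and -0.39 for fibroblasts. The part of these cells in the values of the ribosomal protein genes was not tested.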

How the data were processed

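Hippocampal poly(A) RNA of 12 mice was sequenced, with a size selection among the library steps. The labels state single reads and the methods paired-end reads. According to the submitters' processing notes the reads were mapped to mm10 with STAR, and the authors deposited raw read counts per gene, made from reads that map once. Counts of both strands together were used, with those of each strand as an alternative. IDs were matched to GENCODE M21 (55240 of 55421), and lengths are those of its principal transcripts. Genes with more than 20 counts in total were fitted with TMM factors and edgeR's quasi-likelihood test, two-sided (edgeR 4.0.16, R 4.3.3), each pair of groups on its 6 libraries, the interaction and the library number on all 12 (the latter with group as a term), with Benjamini-Hochberg adjusted P-values under 0.05. The test was checked on simulated counts. Levels are TMM-scaled CPM. Alternatives were DESeq2 1.42.0, limma-voom (limma 3.58.1), other normalisations and filters, all libraries in one fit, library number as a covariate, and each library left out in turn. Leaving out the 4 libraries with over 100 CPM of Ttr was added after the data were seen.

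The members, the 11 gene lists and 11 marker lists, and the division by library number were chosen with earlier results of these data known. Named are all members that passed, or otherwise the 3 with the smallest P in each comparison, together with members of known role, the paralogs, the 5 highest and 5 lowest in level, Fmr1 and, for some lists, the most abundant gene. Other genes were named after their values were seen. Columns of the authors' table for the whole series were not used. Nothing in the labels ties libraries to litters or days, and P-values measure only the spread between these samples. Depths were 17150820 to 20040482 reads on genes, and their part in the precision was not tested. Results for some genes are not reported here.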

Additional observations from a re-analysis of the deposited data

Results flagged for a closer look

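Within the sets of 6 libraries, 42 groups of values were searched for a library far from the others. Chance alone marks about 1 in 20, and 4 were marked. Rps21 stood at 156 CPM in KO-Nut3 RH13, far above the other libraries from RH9. Rpl38 stood at 60.6 CPM and Rpl30 at 31.3 CPM in KO-Nut3 RH6, each the highest of the libraries up to RH8 by a wide gap. Rplp1 stood at 338 CPM in WT-Nut3 RH9, below the other libraries from RH9. RH6, RH9 and RH13 are among the libraries with high Ttr, and the part of that in these values was not tested. None of the 4 closed the gap between the sets.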

How the results depend on the processing

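By library number, the count of 10 members called became 16 with DESeq2 and 16 with every gene of at least 1 count tested, lay between 10 and 12 in the other fits of all libraries, and between 3 and 12 when each library was left out. With every gene of at least 1 count, 630 genes were called by library number (1.75% of those tested), and 4 members (Rps27, Rps29, Rpl37a and Rpl41) passed between KO-Veh and WT-Veh (0.757% of genes), 1 (Rps29) between WT-Nut3 and WT-Veh (0.693%) and 1 (Rps29) in the interaction (0.81%), where all other settings, leaving out each library included, called 0; the cause was not tested. Rpl5, at -0.00 by library number, had 0.00 without ribosomal protein genes in the normalisation, 0.00 with filterByExpr, 0.00 with every gene of at least 1 count, 0.00 without the group term and 0.01 without the libraries of high Ttr, and -0.02 to 0.01 with each library left out, and Rpl11 had -0.00 without the group term. With each library left out, the median log2 fold change of the 83 genes ranged from 0.05 to 0.08 by library number, from -0.05 to 0.01 between KO-Nut3 and KO-Veh, from 0.03 to 0.09 between KO-Veh and WT-Veh, from -0.01 to 0.06 between WT-Nut3 and WT-Veh, from 0.00 to 0.07 between KO-Nut3 and WT-Veh, from -0.04 to 0.04 between KO-Nut3 and WT-Nut3 and from -0.08 to -0.01 in the interaction. The share of reads from RH9 exceeded that up to RH8 by 0.05 percentage points, and by 0.0367 to 0.0507 with other denominators, members or strands and 0.0437 to 0.0602 with each library left out. No paired analysis was possible because the groups share no replicate numbers.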
